A study of Mus musculus with 6 samples.

Results

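Transcripts of co-inhibitory receptors were compared between naive CD8 T cells sorted as bright or as dim for a Nur77-GFP reporter. The group was set by a list of 10 gene symbols: Izumo1r, Cd200, Cd160, Btla, Ctla4, Lag3, Pdcd1, Tigit, Cd96 and Vsir. Of these, 8 matched a row among the 11162 genes of the table, and Lag3 and Tigit were not analysed here. Cells came from the spleen of mice of genotype Tg(Nr4a1-EGFP)GY139Gsat, in which green fluorescent protein is driven by regulatory sequence of Nr4a1, the gene of the immediate early factor Nur77. The sorting markers of both groups name OT-I, a transgenic T-cell receptor of a single specificity, besides CD8+, CD44lo, CD62Lhi and Qa2hi. In the labels the groups differed only in the gate on the reporter, GFP-hi or GFP-lo, with 3 libraries each. The labels gave no age, sex or treatment, and they did not say whether the 3 libraries of a group came from separate animals, so p-values measure the spread between these libraries, which may be technical.

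Co-inhibitory receptors are surface proteins that dampen signals from the T-cell receptor and from costimulatory receptors such as CD28. Many carry tyrosine motifs in their cytoplasmic tails that recruit phosphatases, and others compete with a costimulatory receptor for a shared ligand. Several are induced by T-cell receptor signals and mark activated, anergic or exhausted cells, whereas others are present on resting naive T cells. The list does not hold one kind of protein: Izumo1r encodes folate receptor 4, a membrane-anchored protein known as a marker of regulatory and anergic CD4 T cells, and Cd200 encodes a ligand of the inhibitory receptor CD200R rather than a receptor with a known inhibitory tail.

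Replicates are numbered in accession order. Replicate 2 of each group stood apart in heat-shock transcripts, with Hspa1a at 1100 and 1234 RPKM (GFP-hi and GFP-lo), beside 152 to 235 RPKM in the remaining 4 libraries.

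A group of 3 genes was higher in GFP-hi cells, and none was lower. With Izumo1r, Cd200 and Cd160 past the threshold, 3 of 8 members had an adjusted p under 0.05 (limma on log2(RPKM + 1), Benjamini-Hochberg over the 9351 genes tested), against 3.95% of all genes tested. Higher genes made up 2.46% and lower genes 1.49% of those tested. RPKM are reads scaled to gene length and library size. All 8 members in the table passed the filter, a mean of at least 1 RPKM over the 6 libraries. Izumo1r, Cd200 and Pdcd1 averaged under 1 RPKM in GFP-lo libraries and passed only through their GFP-hi values, so the counts and the median over the 8 are descriptions. With no filter the same number, 3 of 8, was called. The median log2 fold change of the 8 was 0.50, beside 0.02 over all genes tested, and 6 had a positive and 2 a negative value. Libraries of the groups did not overlap for 5 of the 8, Izumo1r, Cd200, Cd160, Pdcd1 and Cd96, and for 26.9% of all genes tested. All 8 had an unadjusted limma p under 0.05, against 20.2% of all genes tested. The number called was 3 among the 4 libraries with less of the heat-shock transcripts Hspa1a and Hspa1b, and again 3 among the 4 libraries with more reads of olfactory and vomeronasal receptor genes. With array quality weights it was 6, of which 5 were higher and 1 lower. In RNA from sorted populations, a larger share of cells that express a gene and more RNA per cell cannot be told apart.

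**Figure D1:**
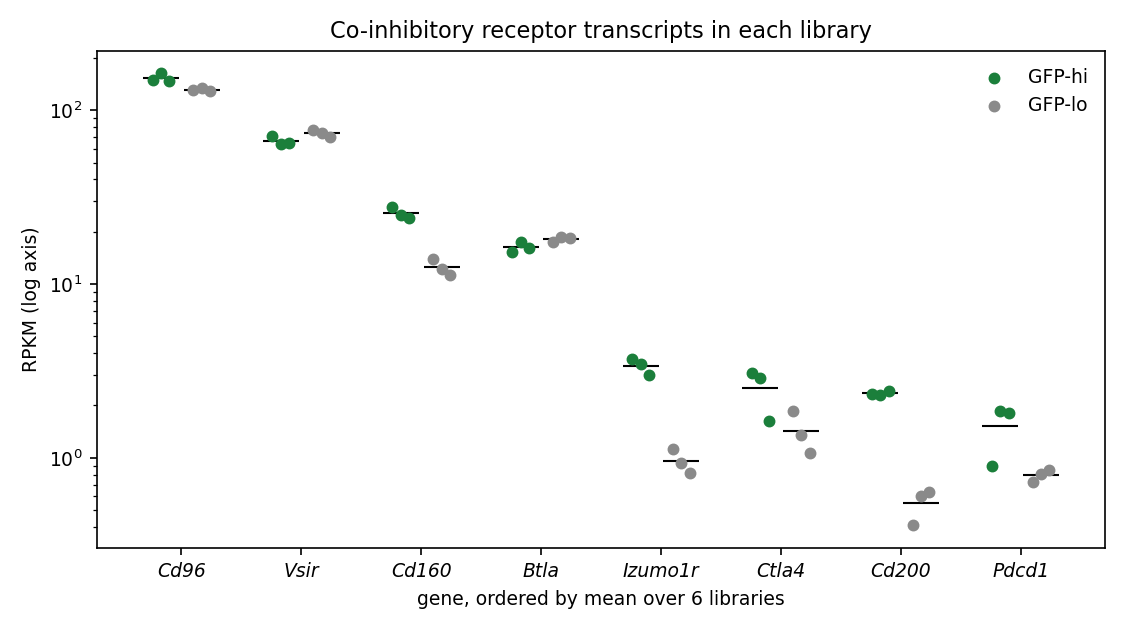
RPKM of the 8 receptor genes on a log axis, with 1 point for each of 3 GFP-hi (green) and 3 GFP-lo (grey) libraries and a line at the mean. Izumo1r, Cd200 and Cd160 lie apart between the groups, Cd96 and Vsir are the most abundant, and Cd160 lies above Btla in GFP-hi but below it in GFP-lo libraries.

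The levels of the 8 genes covered a wide range. In GFP-lo libraries the order of mean RPKM was Cd96 (132), Vsir (73.8), Btla (18.1), Cd160 (12.5), Ctla4 (1.42), Izumo1r (0.959), Pdcd1 (0.791) and Cd200 (0.549). In GFP-hi libraries it was Cd96 (153), Vsir (66.6), Cd160 (25.6), Btla (16.3), Izumo1r (3.40), Ctla4 (2.54), Cd200 (2.35) and Pdcd1 (1.52). Neighbours in the GFP-hi order had separate libraries except Izumo1r and Ctla4, and Ctla4 and Cd200. In the GFP-lo order the exceptions were Ctla4 and Izumo1r, and Izumo1r and Pdcd1. The genes thus fell into 4 with means above 12 RPKM and 4 with means under 4 RPKM in both groups. By mean over the 6 libraries, Cd96 lay above 98.6% and Vsir above 95.9% of all genes tested, and Pdcd1 above 1.71%. Summed over the 8 genes, RPKM ran from 262 to 280 in GFP-hi and from 232 to 244 in GFP-lo libraries. Cd96 alone made up 54.7% to 58.1% of that sum in GFP-hi and 53.7% to 55.5% in GFP-lo libraries.

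Izumo1r (Entrez 64931, chromosome 9, 14885814 to 14903951 in GRCm38) had 3.71, 3.47 and 3.0 RPKM in the GFP-hi libraries, and 1.12, 0.938 and 0.822 RPKM in the GFP-lo libraries. The lowest GFP-hi library was above the highest GFP-lo library. Mean RPKM was 3.40 ± 0.364 against 0.959 ± 0.149 (SD, n = 3 each), a ratio of 3.54, and the log2 fold change was 1.17 (95% interval 0.95 to 1.38, limma adjusted p = 0.00087). Depth recovered from the files put 88.3 to 118 reads per kilobase of transcript behind the GFP-hi values and 21.5 to 40.1 behind the GFP-lo values. Folate receptor 4 is known in CD4 T cells together with CD73, and the CD73 gene Nt5e averaged 0.752 ± 0.115 RPKM (SD, n = 3) in GFP-hi and 1.63 ± 0.269 RPKM (SD, n = 3) in GFP-lo libraries, the opposite direction (log2 fold change -0.58, limma adjusted p = 0.018). That call was lost when GFP-hi replicate 3 or GFP-lo replicate 2 was left out and in both comparisons of 4 libraries, with a limma adjusted p of up to 0.12.

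Cd200 (Entrez 17470, chromosome 16, 45382111 to 45409060) had the largest ratio of the 8 genes. Its RPKM was 2.33, 2.31 and 2.42 in GFP-hi and 0.409, 0.602 and 0.636 in GFP-lo libraries. The GFP-hi libraries lay within a narrow band, and none of the GFP-lo libraries came near it. Mean RPKM was 2.35 ± 0.0565 against 0.549 ± 0.122 (SD, n = 3 each), a ratio of 4.29. The log2 fold change was 1.12 (95% interval 0.93 to 1.31, limma adjusted p = 0.00079). At such levels the added 1 RPKM compresses the difference: with 0.1 RPKM added instead, the log2 fold change was 1.94. The GFP-lo values rested on 14.7 to 17.1 reads per kilobase of transcript. Its receptor gene Cd200r1 averaged 0.897 ± 0.104 RPKM in GFP-hi libraries and 0.775 ± 0.102 RPKM in GFP-lo libraries (SD, n = 3 each), below the filter, and the groups overlapped.

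Cd160 (Entrez 54215, chromosome 3, 96798763 to 96829351) encodes a small immunoglobulin-fold receptor for HVEM, the product of Tnfrsf14. It was the most abundant of the 3 called genes. RPKM was 27.8, 25.1 and 24 in GFP-hi and 13.9, 12.2 and 11.3 in GFP-lo libraries. Each GFP-hi library held more than any GFP-lo library. Averages of 25.6 ± 1.98 and 12.5 ± 1.33 RPKM (SD, n = 3 each) gave a ratio of 2.05, and the log2 fold change was 0.98 (95% interval 0.79 to 1.18, limma adjusted p = 0.0014). In GENCODE M21, 68 bases of its exons overlap exons of Pdzk1 on the opposite strand, and whether reads were counted by strand is not given in the sources used here.

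Btla (Entrez 208154, chromosome 16, 45223705 to 45252895), the second HVEM receptor of the list and one with inhibitory tyrosine motifs in its tail, had 15.2, 17.5 and 16.2 RPKM in the GFP-hi libraries, against 17.4, 18.6 and 18.4 RPKM in the GFP-lo libraries. The groups overlapped, with GFP-hi replicate 2 just above GFP-lo replicate 1. The log2 fold change was -0.15 (95% interval -0.30 to -0.00131, unadjusted p = 0.048, limma adjusted p = 0.24). With array quality weights Btla was the 1 member called lower (-0.18, limma adjusted p = 0.033). Cd160 and Btla therefore stood in opposite order of RPKM in the populations. The gene lengths used for RPKM are not given in the sources used here, and this order depends on them. A length fixed for each gene leaves the fold difference of the ratio between the groups unchanged. The ratio of Cd160 to Btla RPKM within a library was 1.83, 1.44 and 1.48 in GFP-hi and 0.800, 0.656 and 0.615 in GFP-lo libraries, so that Cd160 exceeded Btla in each GFP-hi library and in no GFP-lo library. The mean ratios were 1.58 ± 0.215 and 0.690 ± 0.0973 (SD, n = 3 each; two-sided exact permutation p = 0.10, the smallest that 3 against 3 allows, and 0.10 adjusted over the 3 ratios computed). The 3 ratios were chosen after values were seen, and this one reuses the values of Cd160, already called. Their p-values are therefore descriptions and give no separate test. Tnfrsf14, which encodes their shared ligand, differed by -0.04 on the log2 scale (95% interval -0.35 to 0.27, limma adjusted p = 0.90).

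**Figure D2:**
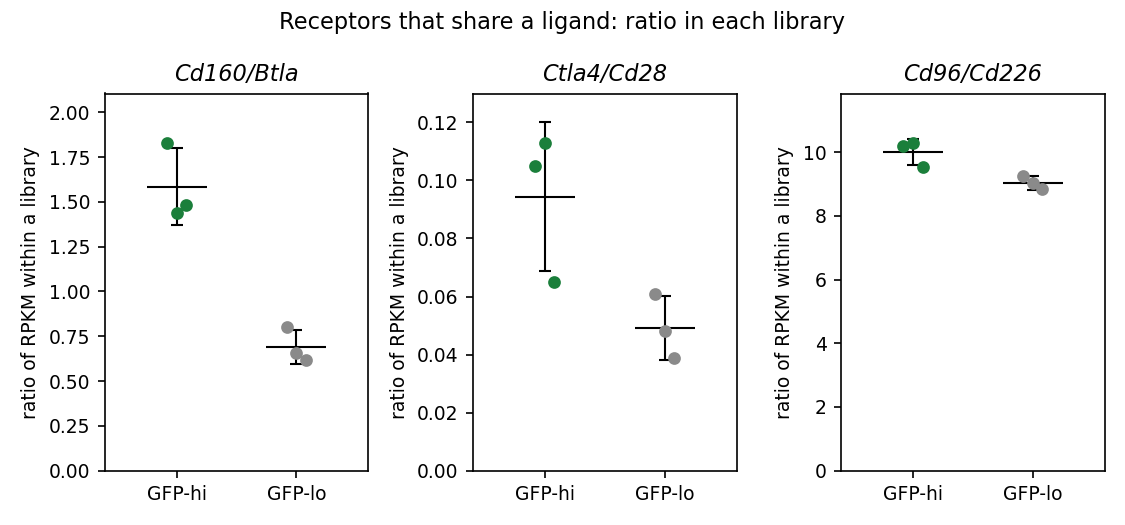
Ratio of RPKM within each library for receptors that share a ligand: Cd160 to Btla (HVEM), Ctla4 to Cd28 (CD80 and CD86) and Cd96 to Cd226 (CD155). Points are libraries, lines and bars are the mean and SD of 3 libraries, and the Cd160 to Btla ratio is 1.44 or more in GFP-hi and 0.800 or less in GFP-lo libraries.

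The CD28-family inhibitors were low and variable. Ctla4 (Entrez 12477, chromosome 1, 60909025 to 60915832) encodes the receptor that competes with CD28 for CD80 and CD86. It had 3.09, 2.89 and 1.63 RPKM in the GFP-hi libraries, against 1.85, 1.35 and 1.07 RPKM in the GFP-lo libraries. GFP-hi replicate 3 lay below GFP-lo replicate 1, so the groups overlapped. The log2 fold change was 0.53 (95% interval 0.11 to 0.95, limma adjusted p = 0.16). With GFP-hi replicate 3 left out it was 0.73 (limma adjusted p = 0.042). Ctla4 varied widely among libraries of one group: its within-group SD of log2(RPKM + 1) was 0.296, above that of 97.7% of genes tested, for which the median SD was 0.0897.

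Pdcd1 (Entrez 18566, chromosome 1, 94038305 to 94052553), which encodes PD-1, an inhibitor induced by activation, had 0.892, 1.85 and 1.81 RPKM in the GFP-hi libraries, against 0.721, 0.802 and 0.851 RPKM in the GFP-lo libraries. GFP-hi replicates 2 and 3 were well above the rest, and GFP-hi replicate 1 was only just above the GFP-lo libraries. The single annotated transcript of Pdcd1, 1930 bases long, turned these values into whole reads within 0.1 of a read: 49, 121 and 103 reads in GFP-hi and 50, 44 and 43 reads in GFP-lo libraries. Among the 8 members searched, only Pdcd1 had an annotated length that did so. The log2 fold change was 0.47 (95% interval 0.11 to 0.82, limma adjusted p = 0.15). It was 0.66 without GFP-hi replicate 1 (limma adjusted p = 0.018), and 0.80 with 0.1 RPKM added instead of 1 (limma adjusted p = 0.14). The low library differed between these genes, replicate 3 for Ctla4 and replicate 1 for Pdcd1.

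Cd28 itself averaged 26.7 ± 2.36 RPKM in GFP-hi libraries and 28.8 ± 1.47 RPKM in GFP-lo libraries (SD, n = 3 each; log2 fold change -0.11, limma adjusted p = 0.48). The ratio of Ctla4 to Cd28 RPKM was 0.105, 0.113 and 0.0651 in GFP-hi and 0.0607, 0.0480 and 0.0387 in GFP-lo libraries. The lowest GFP-hi ratio was just above the highest GFP-lo ratio (two-sided exact permutation p = 0.10, adjusted 0.10). Of the ligand genes, Cd86 differed by -0.06 (limma adjusted p = 0.83), and Cd80 was not analysed here. Cd274, which encodes the PD-1 ligand PD-L1, was lower in GFP-hi cells, with 12.5 ± 0.972 against 16.3 ± 1.44 RPKM (SD, n = 3 each; log2 fold change -0.36, limma adjusted p = 0.049). That call held in 7 of 19 alternatives, and it was lost without any 1 of the 6 libraries.

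The most abundant members differed little between the groups. Cd96 (Entrez 84544, chromosome 16, 46035652 to 46120248) encodes a receptor for CD155 that competes with the costimulatory receptor CD226. It had 150, 163 and 148 RPKM in the GFP-hi libraries, against 130, 135 and 129 RPKM in the GFP-lo libraries. The groups did not overlap, but the difference was small. Mean RPKM was 1.17 times as high, and the log2 fold change was 0.22 (95% interval 0.09 to 0.35, limma adjusted p = 0.081). It had an adjusted p of 0.031 with array quality weights and of 0.019 with the heat-shock and dissociation genes as a covariate. Cd226 differed by 0.07 (95% interval -0.06 to 0.20, limma adjusted p = 0.54). The ratio of Cd96 to Cd226 was 10.2, 10.3 and 9.54 in GFP-hi and 9.26, 9.02 and 8.84 in GFP-lo libraries, a narrow gap between the groups (two-sided exact permutation p = 0.10, adjusted 0.10). Pvr, the CD155 gene, had 2.97 ± 0.842 and 2.78 ± 0.127 RPKM (SD, n = 3 each; limma adjusted p = 0.87).

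Vsir (Entrez 74048, chromosome 10, 60346851 to 60430294) encodes VISTA, an inhibitory protein of resting T cells and myeloid cells. It had 70.7, 64.0 and 65.0 RPKM in the GFP-hi libraries, against 76.9, 74.3 and 70.2 RPKM in the GFP-lo libraries. GFP-hi replicate 1 was above GFP-lo replicate 3, and the log2 fold change was -0.15 (95% interval -0.29 to -0.00451, unadjusted p = 0.045, limma adjusted p = 0.23). Selplg, which encodes PSGL-1, a reported VISTA partner, was at 519 ± 17.5 and 516 ± 18.1 RPKM (SD, n = 3 each; log2 fold change 0.01, limma adjusted p = 0.96).

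**Figure D3:**
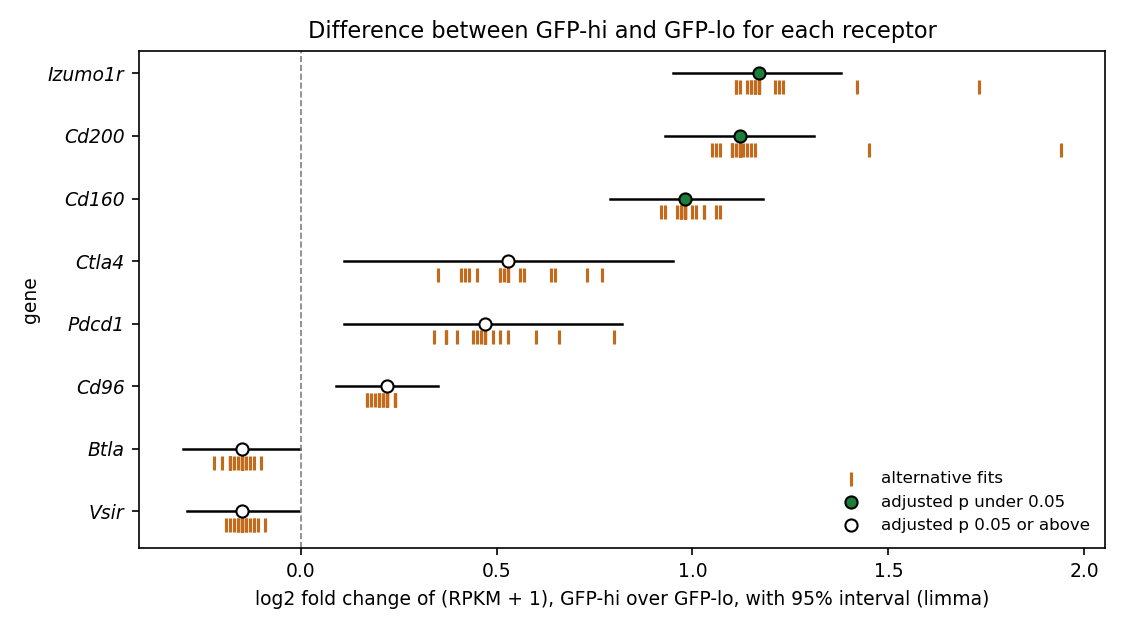
Log2 fold change of (RPKM + 1), GFP-hi over GFP-lo, with its 95% interval for each receptor gene; filled points have a limma adjusted p under 0.05 and orange ticks are the alternative fits. Izumo1r (1.17), Cd200 (1.12) and Cd160 (0.98) lie to the right of the other 5, and no alternative fit of any of the 8 genes crosses 0.

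No tested neighbour of the 3 called genes passed the threshold, which 3.95% of all genes tested passed. Among so few genes, 0 calls is near that share. Btla, Cd200 and Cd96 lie on chromosome 16. Btla and Cd200 are neighbours with no protein-coding gene of RefSeq between them and a gap of 129 kb, and their log2 fold changes were -0.15 and 1.12. The window around Cd200, itself a called gene, was chosen after values were seen. Among 10 tested genes with midpoints within 1000 kb of the Cd200 start, only Cd200 passed the threshold, and the 7 that are not members lay between -0.14 and 0.07. No other tested gene within 500 kb of Izumo1r (7 genes) or Cd160 (10 genes) passed it. Ctla4 lies between Cd28 (136 kb) and Icos (44.9 kb) on chromosome 1. Icos, an inducible costimulatory receptor, differed by 0.27 on the log2 scale (limma adjusted p = 0.075) from means of 11.8 ± 0.888 and 9.60 ± 0.510 RPKM (SD, n = 3 each) without overlap.

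**Figure D4:**
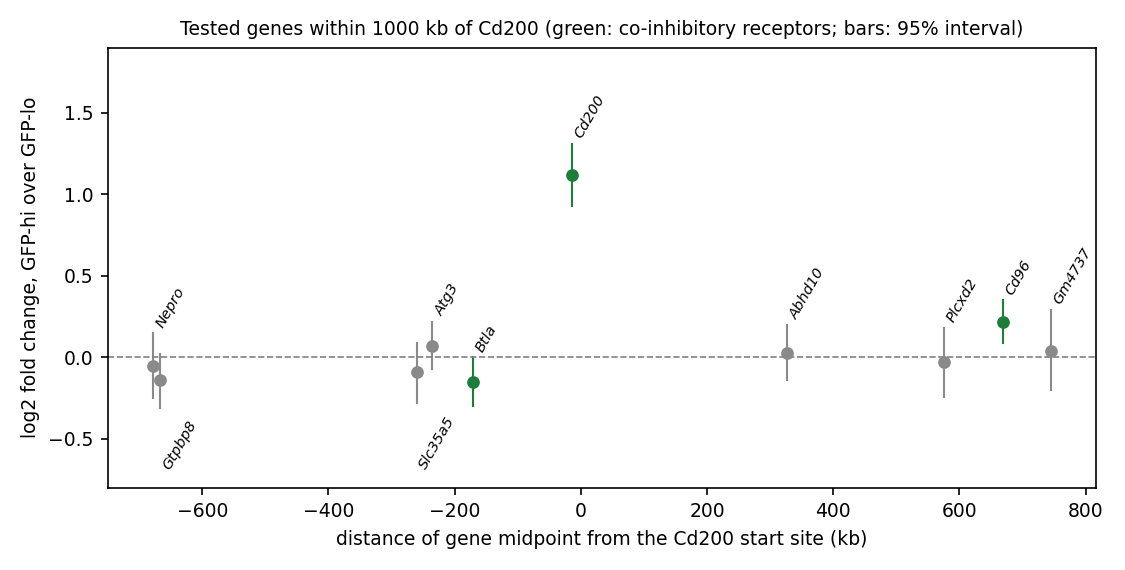
Log2 fold change with 95% interval of each tested gene with its midpoint within 1000 kb of the Cd200 start, against its distance from that start in kb. Receptor genes are green and other genes grey, and Cd200 at 1.12 stands above the rest, which lie between -0.15 and 0.22.

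The sequence before the start site is shown for Cd200, which rose, and for Ctla4, Pdcd1 and Cd96, whose means were higher without passing the threshold. Only the bases of each RefSeq window outside annotated exons are printed. The windows of Izumo1r, Cd160 and Btla lie mostly within exons or gene bodies and are not shown. Sequences are from RefSeq (GRCm38.p6) and run 5′ to 3′ on the strand of the gene. Capitals mark exact matches on either strand to any of 6 motifs. The NBRE element bound by Nur77 was searched as AAAGGTCA. The core of NFAT sites was searched as GGAAAA. The AP-1 site was searched by the letters TGANTCA. For RUNX factors the letters of the core were TGTGGT. For ETS factors the letters of the core were AGGAAG. The TATA box was searched for as TATAAA. The RUNX, ETS and TATA motifs were added once values were known.
Cd200, chr16:45409061-45409303, minus strand: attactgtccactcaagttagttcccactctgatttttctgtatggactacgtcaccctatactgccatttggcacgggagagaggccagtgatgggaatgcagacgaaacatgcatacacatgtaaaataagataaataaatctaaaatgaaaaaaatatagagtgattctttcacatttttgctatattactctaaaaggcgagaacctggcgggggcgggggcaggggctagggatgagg
Ctla4, chr1:60908775-60909024, plus strand: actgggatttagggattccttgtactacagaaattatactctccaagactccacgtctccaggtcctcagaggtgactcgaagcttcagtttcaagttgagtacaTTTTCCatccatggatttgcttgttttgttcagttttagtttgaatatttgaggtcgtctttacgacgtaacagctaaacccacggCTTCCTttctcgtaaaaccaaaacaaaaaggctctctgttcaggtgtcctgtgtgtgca
Pdcd1, chr1:94052554-94052803, minus strand: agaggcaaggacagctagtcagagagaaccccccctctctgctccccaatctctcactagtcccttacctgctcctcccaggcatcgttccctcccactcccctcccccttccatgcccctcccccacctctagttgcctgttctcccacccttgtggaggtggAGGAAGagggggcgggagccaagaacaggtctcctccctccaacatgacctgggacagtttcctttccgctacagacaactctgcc
Cd96, chr16:46120252-46120498, minus strand: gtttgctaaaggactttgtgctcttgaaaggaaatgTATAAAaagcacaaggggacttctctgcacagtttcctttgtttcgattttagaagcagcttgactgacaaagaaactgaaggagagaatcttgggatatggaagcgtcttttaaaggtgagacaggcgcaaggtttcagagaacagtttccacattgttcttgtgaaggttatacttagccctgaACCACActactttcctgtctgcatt
The Cd200 window held no match to any of the 6 motifs. Neither did the window of Vsir, whose mean was lower in GFP-hi libraries. The Vsir window lies outside exons and is not printed here. The Ctla4 window held an NFAT core and an ETS core, both on the reverse strand, and the Pdcd1 window held an ETS core. The Cd96 window held a TATA box 214 bases before the start and a RUNX core on the reverse strand 28 bases before it. Over the 9 windows of the 8 genes, 0 held the NBRE element, which is found in 1.34% of all 32851 windows of 250 bases, and 0 held the AP-1 motif (6.75% of all windows). The NFAT core was in 1 of 9 (20.4%), the RUNX core in 5 of 9 (14.0%), the ETS core in 5 of 9 (29.5%) and the TATA box in 1 of 9 (12.4%). The RUNX windows were those of Izumo1r, Btla, Cd96 and both starts of Cd160. The ETS windows were those of Btla, Ctla4, Pdcd1 and both starts of Cd160. Both counts thus include windows mostly within exons or gene bodies, and Cd160 entered with 2 windows. These matches describe letters in a short window and say nothing of binding.

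Related genes were grouped by role, and their counts stand beside 2.46% higher and 1.49% lower among all genes tested. Among ligands and partners of the receptors, 6 of 18 listed genes were tested, 0 were higher and 1 was lower, Cd274, with a median log2 fold change of -0.02. Among costimulatory counterparts 13 of 15 were tested, 2 were higher and 0 lower, with a median of 0.07. Those that rose were Tnfrsf9, the gene of the costimulatory receptor 4-1BB, at 7.10 ± 0.563 against 1.27 ± 0.205 RPKM, and Slamf1, a homophilic SLAM-family receptor, at 3.38 ± 0.280 against 1.95 ± 0.0484 RPKM (SD, n = 3 each). Their log2 fold changes were 1.83 (limma adjusted p = 9.7e-05) and 0.57 (limma adjusted p = 0.0055), and the Slamf1 adjusted p was 0.064 among the 4 libraries with less Hspa1a and Hspa1b.

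Other inhibitory receptors moved both ways. Of 27 listed genes 10 were tested, 1 was higher and 2 were lower, with a median of 0.08. Among all genes tested, 2.46% were higher and 1.49% lower. Lair1 and Nt5e, the lower genes, averaged under 1 RPKM in GFP-hi libraries. They passed the filter only through their GFP-lo values, so these counts are descriptions. With no filter 11 were tested, and again 1 was higher and 2 were lower. Cd6, a scavenger receptor family member that restrains T-cell receptor signalling, averaged 159 ± 2.40 RPKM in GFP-hi libraries and 129 ± 8.0 RPKM in GFP-lo libraries (SD, n = 3 each; log2 fold change 0.30, limma adjusted p = 0.034). Lair1, an inhibitory collagen receptor, had 0.769 ± 0.0867 against 1.31 ± 0.0717 RPKM (SD, n = 3 each; log2 fold change -0.38, limma adjusted p = 0.033). The third was Nt5e. Leaving out 1 library ended the call of Cd6 in 5 of 6 fits (all but the one lacking GFP-lo replicate 1). Lair1 lost its call in each of the 4 such fits in which it passed the filter, those without one of the GFP-hi libraries or without GFP-lo replicate 2. It fell below the filter when GFP-lo replicate 1 or 3 was left out. No gene of this list passed limma's threshold when GFP-hi replicate 3 or GFP-lo replicate 2 was left out, or among the 4 libraries with less Hspa1a and Hspa1b.

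Of 24 signal mediators tested, 2 were higher and 0 lower, with a median of 0.03, beside 2.46% higher and 1.49% lower among all genes tested. The phosphatase genes that inhibitory tails recruit were close: Ptpn6, which encodes SHP-1, had 180 ± 6.85 and 184 ± 6.08 RPKM (SD, n = 3 each; log2 fold change -0.04, 95% interval -0.16 to 0.09), Ptpn11, which encodes SHP-2, differed by 0.09 (-0.12 to 0.31) and Inpp5d, which encodes SHIP-1, by -0.02 (-0.24 to 0.19). Those that rose were Ubash3b, the gene of the phosphatase Sts-1 (log2 fold change 0.43, limma adjusted p = 0.028), and Sh2d1a, the gene of the SLAM adaptor SAP (0.33, limma adjusted p = 0.048). Leaving out a library took the Sh2d1a call away in each of the 6 fits, and the Ubash3b call in 5 of them, all but the fit without GFP-hi replicate 3.

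Of 21 transcription regulators tested, 4 were higher and 0 lower, with a median of 0.03, beside 2.46% and 1.49% of all genes tested. Ikzf2, which encodes Helios, had 3.24, 3.95 and 2.94 RPKM in the GFP-hi libraries, against 1.05, 1.02 and 1.34 RPKM in the GFP-lo libraries (log2 fold change 1.03, limma adjusted p = 0.0025). Ikzf3, which encodes Aiolos, differed by 0.50 (limma adjusted p = 0.0036), Id2, an inhibitor of E proteins, by 0.36 (limma adjusted p = 0.040) and Tox, a factor of exhausted T cells, by 0.29 (limma adjusted p = 0.026). Ikzf2 and Ikzf3 passed in every alternative in which they were tested. Id2 lost the call when any library but GFP-hi replicate 3 was left out, and Tox when any but GFP-hi replicate 2 or GFP-lo replicate 1 was, and over all alternatives the limma adjusted p reached 0.15 and 0.11. Tbx21 and Eomes, which encode effector and memory factors, differed by -0.11 (limma adjusted p = 0.84) and -0.01 (limma adjusted p = 0.97).

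**Figure D5:**
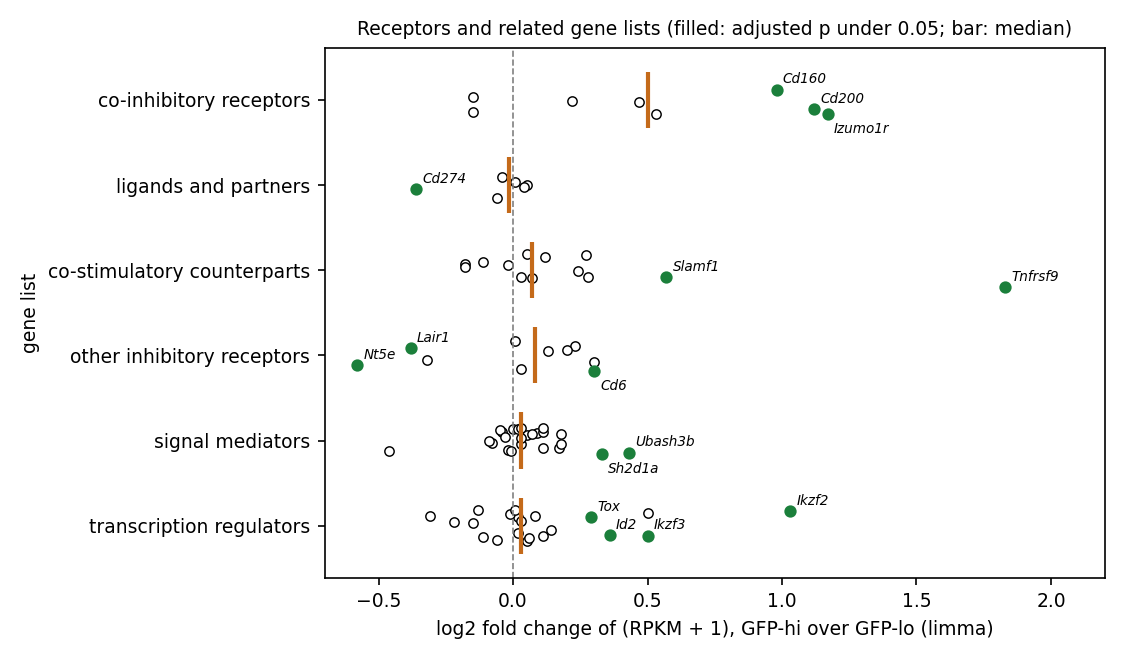
Log2 fold change of (RPKM + 1), GFP-hi over GFP-lo, of each tested gene of the co-inhibitory receptors and 5 related lists. Filled points have a limma adjusted p under 0.05 and are named, and the orange bar is the median of a list, which is 0.50 for the receptors and -0.02 to 0.08 for the others. Members and lists were chosen with earlier results of these data known. Izumo1r, Cd200 and Pdcd1 passed the filter only through their GFP-hi values, so the medians are descriptions.

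The reporter genes and markers of other cells were measured beside these results. Nr4a1 differed by 0.02 (95% interval -0.85 to 0.89) and the GFP transcript by 0.15 (-0.06 to 0.36), so the transcripts gave no check of the sort labels. Recovered depth was 26172000 to 35940000 reads per library. Markers of CD8 T cells were abundant, with 10 of 10 in the table and a summed RPKM of 2440 to 2640 in GFP-hi and 2520 to 2710 in GFP-lo libraries. None of them passed the threshold, beside 3.95% of all genes tested. Of 8 markers of CD4 and regulatory T cells, which also use Izumo1r, Ctla4 and Ikzf2, Cd40lg, Bcl6 and Cxcr5 were tested, and Cd4, Foxp3, Il2ra, Zbtb7b and Il21 were not analysed here. The summed RPKM of the 3 was 19.2 to 26.5 in GFP-hi and 40.3 to 50.5 in GFP-lo libraries, with Cd40lg lower (log2 fold change -1.13, limma adjusted p = 0.011) and Bcl6 higher (0.47, limma adjusted p = 0.031, up to 0.15 over the alternatives). The Bcl6 call was lost when GFP-hi replicate 1 or 3 or GFP-lo replicate 2 or 3 was left out. Of 8 B cell markers 4 were in the table, with a sum of 12.8 to 14.4 in GFP-hi and 11.1 to 11.6 in GFP-lo libraries, nearly all of it Cd79b. None of 8 markers of NK and innate-like T cells was in the table. Of 14 heat-shock and dissociation genes tested, 0 were called, near the 3.95% of all genes tested. Their median was -0.27, and 11 had a negative and 3 a positive value. The 3 myeloid markers in the table summed to at most 2.79 RPKM in any library. Of 7 memory CD8 markers tested, 0 were higher and 1 was lower, beside 2.46% and 1.49% of all genes tested. The lower gene was Cxcr3 (-1.26, limma adjusted p = 0.0054, at most 0.053 over the alternatives). Of 15 cell cycle genes 12 passed the filter, 9 higher and 0 lower, beside 2.46% and 1.49% of all genes tested. Some passed only through their GFP-hi values, such as Mki67 (1.91 RPKM against 0.218 RPKM) and Pclaf (1.91 RPKM against 0.123 RPKM), so that count is a description. With no filter 10 of 15 were higher and 0 lower, and 6 of 9 tested were higher when GFP-hi replicate 1 or 3 was left out. The 15 genes summed to 114 to 126 RPKM in GFP-hi and 72.5 to 77.7 RPKM in GFP-lo libraries. The part of cycling cells, CD4 T cells or B cells in the receptor values was not tested.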

How the data were processed

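The authors deposited RPKM, per the file headers, in 1 column for each of the 6 libraries. Sorted cells were lysed and frozen, and libraries were made with SMART-seq v4 and Nextera XT, per the labels' protocols. STAR and mm10 are named in the submitters' processing notes. The read counter, annotation and listing rule are not given in the sources used here. Each column carries the title of 1 sample. For 15 rows whose symbol was missing, turned into a date or repeated, names were looked up by Entrez ID in RefSeq.

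Genes with a mean of at least 1 RPKM (9351) were tested with limma 3.58.1 (R 4.3.3) after adding 1 RPKM and taking log2. The moderated test (lmFit, eBayes, trended prior variance) was two-sided without covariates, adjusted by Benjamini-Hochberg over all genes tested, and called at an adjusted p under 0.05. This scale understates the change of low genes. On simulated data with independent normal noise, 200 genes of 9351 were changed by 1 in log2(RPKM + 1). Of these, 95.2% were recovered, and 4.02% of calls were false, over 5 simulations. A 2-fold change in the RPKM of a low gene is smaller on this scale, and its recovery was not tested. Noise shared between libraries was not simulated. Depth was recovered from the step of 1 read in low RPKM of genes with 1 transcript in GENCODE M21 (86.2% to 90.4% of these values within 0.1 of a whole read, 20% by chance); a multiple of the depth also gives whole reads, and the smallest was taken. Counting error is a lower limit, since reads include PCR copies. Promoter windows and positions are from RefSeq GRCm38.p6, the build the notes name as mm10.

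The members, lists and tests were chosen with earlier results of these data known. Named genes are the members, Nr4a1 and GFP, fixed partners, mediators and regulators, up to 6 called genes of each related list, and cell markers. Icos, Cd200 neighbours and the 3 ratios were chosen after values were seen. Alternatives changed the pseudocount, filter, scaling (median, quantile, trimmed mean of M values), variance model, covariate and libraries. Planned protein features were not run. Figures were drawn with matplotlib 3.10.9.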

Additional observations from a re-analysis of the deposited data

How the results depend on the processing

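Izumo1r, Cd200 and Cd160 kept their direction and their call in each of the 18, 18 and 19 alternatives in which they were tested, with adjusted p values up to 0.031, 0.021 and 0.032. Btla, Ctla4, Pdcd1, Cd96 and Vsir kept their direction in every alternative in which they were tested, and Vsir passed in none. The number of members called was 3 or 4 when 1 library was left out, 1 of 4 tested with a mean of at least 5 RPKM, where fewer genes were tested, and 6 with array quality weights. The number of all genes called was 369, and it was 134 to 298 when 1 library was left out, with fewer samples, 202 with a mean of at least 5 RPKM, 1282 with array quality weights, 90 among the 4 libraries with less Hspa1a and Hspa1b and 826 with the heat-shock and dissociation genes as a covariate. The cause was not tested for the weights and the covariate. With trimmed mean of M values 203 were higher and 187 lower, against 230 and 139, and the median of all genes moved from 0.0179 to -0.00634. The log2 fold change of Nr4a1, 0.02, turned to -0.00424 with quantile normalization, -0.00418 with trimmed mean of M values, -0.42 with array quality weights, -0.01 among the 4 libraries with less Hspa1a and Hspa1b and -0.23 among the 4 with more nasal receptor reads. Over the fits that left out 1 library it ran from -0.34 (GFP-lo replicate 3 left out) to 0.34 (GFP-hi replicate 3 left out), with -0.30 when GFP-hi replicate 2 was left out, and its adjusted p was never under 0.43. Of 21 other named genes with a call, 11 lost it in at least 1 alternative and 0 changed direction. Counts of called genes ran from 0 to 5 for costimulatory counterparts, 0 to 7 for other inhibitory receptors, 0 to 6 for mediators and 2 to 6 for regulators. No paired analysis was run because the labels carry no replicate numbers, so intervals and overlaps are of unpaired groups. In accession order Nr4a1 ran alike in GFP-hi and GFP-lo libraries (56.6 and 63.1, 90.9 and 84.9, 37.0 and 33.8 RPKM). Hspa1a also ran alike (158 and 235, 1100 and 1234, 152 and 211 RPKM). Median RPKM of nasal receptor genes, all under 1 RPKM, did not run alike (0.292 and 0.038, 0.037 and 0.263, 0.419 and 0.583). Whether same-numbered libraries share an animal or day was not tested. Cd200 in GFP-lo libraries rests on the fewest reads of the members, 14.7 to 17.1 per kilobase.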
